A study of Mus musculus with 6 samples.

Results

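The 10 genes described here encode the mucus, the secreted products and the lineage factors of goblet cells, the mucus-secreting cells of the intestinal epithelium: Muc2, Tff3, Agr2, Fcgbp, Spdef, Zg16, Spink4, Guca2a, Foxa3 and Galnt12. They were taken by symbol from the deposited table, which held all 10 among its 24930 genes. Messenger RNA of mouse crypt epithelium was sequenced in 6 libraries. 3 came from β-cateninGOF/+ crypts, where 1 allele encoding β-catenin had been switched to a gain-of-function form 4 days before, and 3 came from Control crypts. The mutant columns of the table are named for a heterozygous exon change. The driver of the mutation, the strain, the age and the intestinal segment of the mice, and the genotype and treatment of the Control mice, are not given in the labels.

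Goblet cells arise from crypt progenitors in which Notch signalling is low and the factor Atoh1 is active, and the factors Spdef and Foxa3 act later, in their maturation. Their main product is the gel-forming mucin Muc2, a large protein that is folded with the help of Agr2, carries O-linked sugar chains begun by GalNAc-transferases such as Galnt12, and is stored in granules together with Fcgbp, Zg16 and the trefoil peptide Tff3. β-catenin is the nuclear effector of WNT signalling, which maintains crypt stem cells and Paneth cells and acts on DNA through TCF/LEF factors.

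6 of the 10 genes had a promoter in the RefSeq table of build GRCm38.p6. The 250 bases before the start site of a mucin gene, a secreted peptide gene and a lineage factor gene are shown because these represent the main roles among the 10 genes and because β-catenin acts through sites in DNA. Capitals mark matches on either strand to any of 4 short motifs. The site of TCF/LEF factors was searched for as CTTTGAT. For forkhead factors of the FOXA family the letters were TGTTTAC. Sites of GATA factors were searched for as AGATAA. The E-box, a class of site that Atoh1 binds, was taken as CAGCTG. No match of 1 motif overlapped that of another.
Muc2, chr7:141690090-141690339, plus strand: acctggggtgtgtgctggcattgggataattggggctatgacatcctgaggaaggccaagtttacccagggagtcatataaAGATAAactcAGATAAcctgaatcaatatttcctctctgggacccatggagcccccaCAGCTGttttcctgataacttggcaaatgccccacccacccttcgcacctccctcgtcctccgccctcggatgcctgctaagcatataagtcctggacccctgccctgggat
Guca2a, chr4:119637482-119637731, plus strand: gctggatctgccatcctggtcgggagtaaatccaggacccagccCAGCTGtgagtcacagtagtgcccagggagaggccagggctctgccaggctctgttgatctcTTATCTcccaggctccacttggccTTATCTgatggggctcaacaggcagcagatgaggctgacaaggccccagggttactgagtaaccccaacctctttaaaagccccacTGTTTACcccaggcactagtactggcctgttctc
Spdef, chr17:27728952-27729201, minus strand: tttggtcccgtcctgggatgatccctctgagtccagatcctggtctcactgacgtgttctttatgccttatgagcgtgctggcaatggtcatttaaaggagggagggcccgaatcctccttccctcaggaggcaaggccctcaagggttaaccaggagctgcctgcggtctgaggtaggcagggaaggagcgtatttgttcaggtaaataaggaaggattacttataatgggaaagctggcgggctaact
No TCF/LEF match was found in the 6 promoters, against a share of 3.23% among 27025 mouse promoters of the same length. The E-box was found in 3 of the 6 (Fcgbp, Guca2a and Muc2; 12.8% of all promoters), the GATA motif in 2 (Guca2a and Muc2; 10.3%) and the FOXA motif in 1 (Guca2a; 3.09%). These are matches of letters in a window, and no binding was measured.

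Values in the deposited table are normalized abundances, called units here. Low values stepped as whole reads divided by transcript length would, so levels can be set side by side between genes. A read was worth between 47.7 and 76.8 units times bases in the 6 libraries, and the least abundant of the 10 genes, Foxa3, then rested on roughly 330 to 641 reads per library. Library totals were 645225, 940163 and 663888 units in β-cateninGOF/+ replicates 1 to 3, against 1268771, 886363 and 756929 units in Control replicates 1 to 3. Alpha-defensins of Paneth cells took 11.1 to 37.4% of all units in β-cateninGOF/+ libraries and 24.8 to 49.9% in Control libraries. β-cateninGOF/+ replicate 3 stood apart: the median absolute log2 difference per gene from the other 5 libraries was 0.318 to 0.483, where the other libraries differed from each other by 0.174 to 0.244. Ctnnb1, the mutated gene, had 261 ± 24.4 units in β-cateninGOF/+ and 256 ± 15.1 units in Control libraries (mean ± SD, n = 3 each), a sum over both alleles. Xist and Y-linked genes marked β-cateninGOF/+ replicate 1 and Control replicates 1 and 2 as male and the other 3 libraries as female. The labels do not tie libraries to animals, so p-values speak for the spread among these 6 libraries, which may be technical in part. In whole crypt epithelium, fewer goblet cells and less RNA per goblet cell cannot be told apart.

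The comparison asked whether goblet cell genes differed between mutant and control crypts. None of the 10 passed the test: 0 of 10 had an adjusted p under 0.05 in limma, 0 of 10 an unadjusted p under 0.05, and in 10 of 10 the values of the groups overlapped. Of all 11837 genes tested, 0.0169% passed at the adjusted threshold, 8.31% had an unadjusted p under 0.05 (4.72% higher and 3.59% lower in β-cateninGOF/+ libraries), and in 16.7% the groups did not overlap (8.34% higher and 8.37% lower). The mean log2 level was higher in β-cateninGOF/+ libraries for 7 of the 10 genes and lower for 3, and the median log2 difference was 0.11, beside -0.02 over all genes tested. That median was 0.343 without Control replicate 1, -0.0036 without Control replicate 2 and -0.0976 with array weights, which give more variable libraries less weight. The weights were 6.47, 0.576 and 0.228 for β-cateninGOF/+ replicates 1 to 3, so mutant replicate 1 carried most of its group. For Control replicates 1 to 3 they were 1.725, 0.780 and 0.876. The estimate of the weights stopped before convergence. Zg16 had the largest positive difference at 1.35 and Spink4 the largest negative one at -0.65, and the 95% intervals of all 10 included 0.

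**Figure D1:**
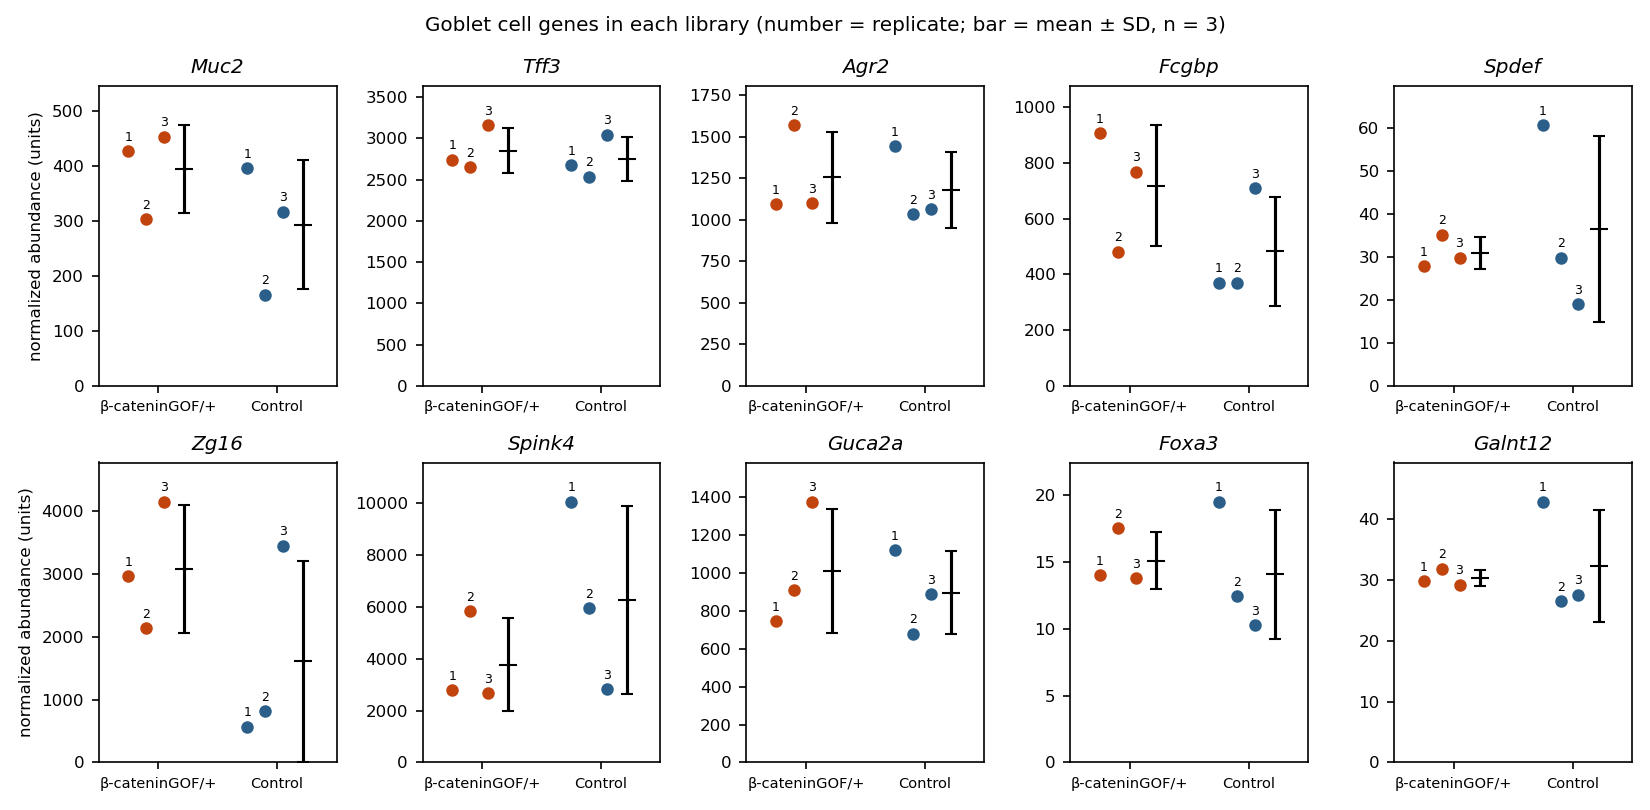
Normalized abundance in units (vertical axes, starting at 0) of the 10 goblet cell genes in each β-cateninGOF/+ and Control library; points are libraries labelled with their replicate number and bars are mean ± SD. The groups overlap in every panel; Tff3 is nearly level across libraries, while Zg16 ranges from 566 to 4148 units and Spink4 from 2679 to 10068 units.

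Lineage factors showed no difference between the groups that passed the test. Spdef, an ETS-family factor required for goblet and Paneth cell maturation, had 27.9, 35.2 and 29.9 units in β-cateninGOF/+ replicates 1 to 3, against 60.8, 29.8 and 19.1 units in Control replicates 1 to 3. All 3 mutant values lay inside the Control range, whose ends were set by Control replicates 1 and 3. The log2 difference was -0.08 ± 0.38 (SE; 95% interval -0.99 to 0.83; adjusted p = 0.945 in limma). Foxa3, a forkhead factor of the endoderm, had 14.0, 17.5 and 13.8 units in mutant libraries and 19.5, 12.4 and 10.3 units in Control libraries. Here too the mutant values fell inside the Control range, with a log2 difference of 0.13 ± 0.24 and a 95% interval of -0.43 to 0.70 (adjusted p = 0.832 in limma). Spdef and Foxa3 were both highest in Control replicate 1 and lowest in Control replicate 3.

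Folding and glycosylation genes likewise showed no difference that passed the test. Agr2, a disulfide isomerase of the endoplasmic reticulum that is needed for Muc2 production, had 1095, 1570 and 1102 units in β-cateninGOF/+ libraries and 1442, 1033 and 1065 units in Control libraries. One library of each group, mutant replicate 2 and Control replicate 1, stood above the other 4. The log2 difference was 0.09 ± 0.26, with a 95% interval of -0.54 to 0.71 (adjusted p = 0.911 in limma). Galnt12, a transferase that starts O-linked chains on mucins, had 29.9, 31.9 and 29.3 units in mutant crypts against 42.9, 26.5 and 27.6 units in Control libraries. Its SD was 1.37 units in mutant and 9.19 units in Control libraries, where replicate 1 alone lay above 40 units. The log2 difference was -0.06 ± 0.20, with a 95% interval of -0.54 to 0.42 (adjusted p = 0.923 in limma).

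Among the genes of the mucus gel, Tff3 was the most even. This trefoil peptide gene, whose product protects and repairs the epithelial surface, had 2741, 2653 and 3160 units in β-cateninGOF/+ libraries and 2673, 2533 and 3043 units in Control libraries. Its highest library exceeded its lowest by 1.25-fold, the smallest such ratio among the 10 genes, and the log2 difference was 0.05 ± 0.26 (95% interval -0.56 to 0.66; adjusted p = 0.947 in limma). Muc2 itself had 426, 303 and 453 units in mutant crypts against 396, 166 and 317 units in Control libraries. The low value of Control replicate 2 set much of its mean difference. The log2 difference was 0.50 ± 0.35 with all libraries (95% interval -0.34 to 1.33; adjusted p = 0.619 in limma), and it was 0.13 without that library.

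Fcgbp, a mucus protein that is linked to Muc2 in the gel, had 907, 482 and 769 units in β-cateninGOF/+ libraries and 371, 370 and 709 units in Control libraries. Control replicate 3 lay between the mutant libraries, and the other 2 Control libraries lay below all 3 of them. The log2 difference was 0.60 ± 0.36 (95% interval -0.25 to 1.44; adjusted p = 0.594 in limma). Zg16, a lectin-like protein that binds gram-positive bacteria and keeps them from the epithelium, showed the same arrangement more widely. It had 2958, 2131 and 4148 units in mutant crypts, against 566, 815 and 3446 units in Control libraries. The log2 difference of Zg16 was 1.35 ± 0.68, a ratio of 2.54 on the log2(value + 1) scale, with a 95% interval of -0.26 to 2.95 (unadjusted p = 0.0876 and adjusted p = 0.590 in limma). Without Control replicate 1 it was 0.82, and without Control replicate 3 it was 2.13.

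The 2 remaining genes encode other secreted products. Spink4, a Kazal-type protein of goblet cell granules, was the most abundant of the 10 genes on average. It had 2785, 5848 and 2679 units in β-cateninGOF/+ libraries and 10068, 5956 and 2836 units in Control libraries. Control replicate 3 lay among the mutant values, and the log2 difference was -0.65 ± 0.56 (95% interval -1.98 to 0.68; adjusted p = 0.659 in limma). It was -0.22 without Control replicate 1 and -1.14 without Control replicate 3. Guca2a, which encodes guanylin, a peptide that stimulates fluid secretion through the receptor Gucy2c, had 747, 910 and 1378 units in mutant libraries and 1121, 680 and 890 units in Control libraries. Mutant replicate 3 was its highest library and Control replicate 2 its lowest, with a log2 difference of 0.15 ± 0.31 (adjusted p = 0.858 in limma).

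**Figure D2:**
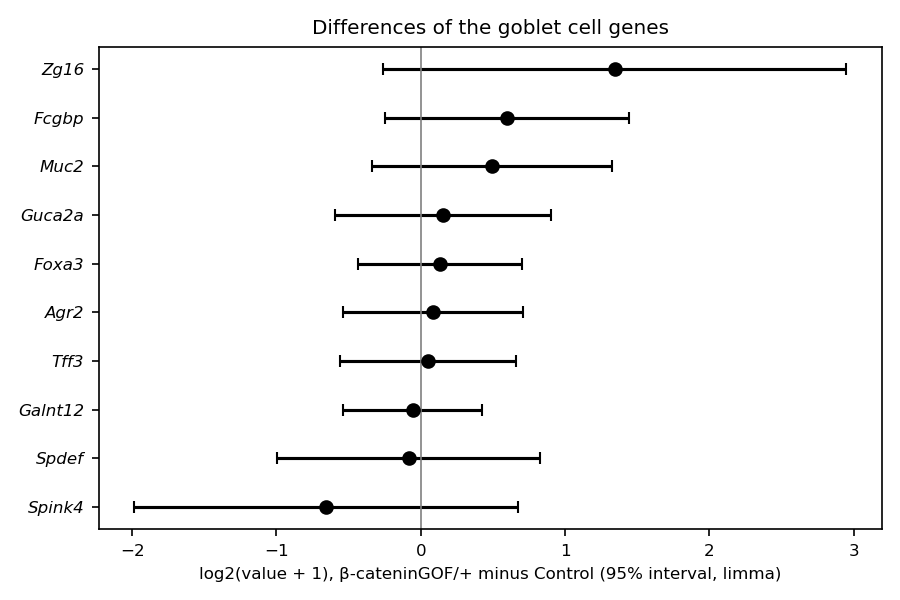
Difference in log2(value + 1) between β-cateninGOF/+ and Control libraries (horizontal axis) for each of the 10 genes (vertical axis); points are the estimates and bars their 95% intervals from limma (n = 3 each). Every interval includes 0, from Zg16 at 1.35 to Spink4 at -0.65.

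Averaged over the 6 libraries, the levels per length ran from Spink4 (5029 ± 2908 units, SD) through Tff3 (2801 ± 246), Zg16 (2344 ± 1442), Agr2 (1218 ± 228), Guca2a (954 ± 258), Fcgbp (601 ± 225) and Muc2 (344 ± 105) to Spdef (33.8 ± 14.2), Galnt12 (31.3 ± 5.98) and Foxa3 (14.6 ± 3.39). Ranges of neighbours in this order overlapped, except between Muc2 and Spdef and between Galnt12 and Foxa3. The secreted products thus stood well above the factors and the transferase, and Spink4 ranked 20 and Tff3 28 among all genes of the table. The level of Muc2 is uncertain against the others: its longest transcript in the GENCODE M21 annotation has 2926 bases, Muc2 is a large repetitive gene, and the annotation that the authors used is not given in the sources used here. Together the 10 genes made up 1.82, 1.49 and 2.07% of all units in mutant replicates 1 to 3, against 1.32, 1.31 and 1.63% in Control replicates 1 to 3. With the alpha-defensins taken out of the total, the shares were 2.19, 2.37 and 2.33% in mutant and 2.64, 2.00 and 2.17% in Control libraries.

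The 10 genes did not vary as a block across libraries. Control replicate 1 was the highest library for 4 of them (Spdef, Foxa3, Galnt12 and Spink4) and the lowest for 1 (Zg16). β-cateninGOF/+ replicate 3 was the highest for another 4 (Muc2, Tff3, Zg16 and Guca2a) and the lowest for 1 (Spink4). Control replicate 2 was the lowest for 6 of the 10. Zg16 and Spink4 ran nearly opposite to each other, an observation made after the values were seen. The ratio of Spink4 to Zg16 was 0.942, 2.74 and 0.646 in β-cateninGOF/+ libraries, against 17.8, 7.31 and 0.823 in Control libraries. Control replicate 3 therefore resembled the mutant libraries in this ratio, and the other 2 Control libraries stood above all 4.

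**Figure D3:**
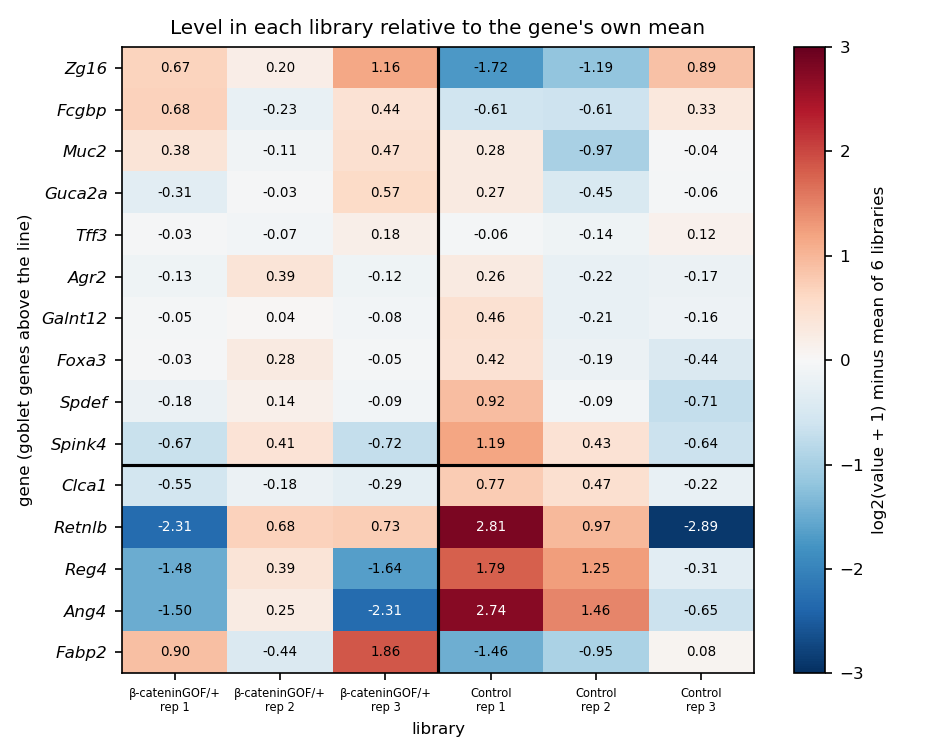
Level of each gene in each library, as log2(value + 1) minus the mean of the gene over the 6 libraries (colour and printed value); rows are the 10 goblet cell genes above the line and 5 other genes below it, columns are the libraries. Spink4 and Ang4 are highest in Control replicate 1 and lowest in β-cateninGOF/+ replicate 3, and Zg16 and Fabp2 show the opposite ends.

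The order of the libraries from high to low was compared between Spink4 or Zg16 and markers of neighbouring cell types. Spink4 ranked the libraries in the same order as 4 of 10 Paneth cell genes tested, namely Itln1, Ang4, Defa17 and Defa24, where 0.769% of all other genes tested share that order. It shared the order with 1 of 7 tuft cell genes (Pou2f3), 0 of 10 enterocyte genes and 0 of 13 other goblet secretion genes. Reg4, placed here in the enteroendocrine list, had this order too, and the remaining lists were not scanned for it. The lists are not exclusive to a cell type, so 4 of 10 against 0 of 13 does not separate Paneth from goblet cells. Ang4, a ribonuclease of Paneth and goblet cells, had 1039, 3509 and 594 units in mutant crypts against 19667, 8093 and 1876 units in Control libraries. The summed level of the 10 Paneth genes ranged from 40822 to 180900 units in mutant and from 107100 to 379060 units in Control libraries. Zg16 shared its order of libraries with 1 of 10 enterocyte genes, Fabp1, with 0 of 10 Paneth, 0 of 7 tuft and 0 of 13 other goblet secretion genes, and with 0.422% of all other genes tested. A match needed all 6 places to agree, so near matches are left out of these counts. Alpi, Fabp2, Apoa1 and Krt20 of the enterocyte list and Muc13 of the other goblet list differed from Zg16 only by a swap of neighbouring places. So did Nupr1 of the Paneth list and Clca1 and Klk1 of the other goblet list from Spink4. How common near matches are over all genes was not computed. Fabp2, whose product carries fatty acids in absorptive cells, had 3419, 1354 and 6679 units in mutant libraries and 665, 952 and 1945 units in Control libraries. Summed over 10 enterocyte genes, the level ranged from 5281 to 22519 units in mutant and from 3256 to 9021 units in Control libraries. The part of Paneth cells or enterocytes in the values of Spink4 and Zg16 was not tested.

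The differences were also taken within each sex. Between male libraries, 1 mutant against 2 Control, the log2 difference was 2.12 for Zg16, 1.29 for Fcgbp, -0.60 for Spdef and -1.47 for Spink4. Between female libraries, 2 mutant against 1 Control, it was -0.21 for Zg16, -0.22 for Fcgbp, 0.74 for Spdef and 0.48 for Spink4. These 4 genes had the largest differences between male and female values among the 10. The signs were opposite for 9 of the 10 genes, Muc2 being the exception, and for 41.1% of all genes tested. For the 4 genes the test of that difference gave unadjusted p-values of 0.0560, 0.0700, 0.0932 and 0.164 in the same order, and an adjusted p of 1.00 for each, in limma, so a difference between the sexes was not shown for any of them. The median over the 10 genes was -0.15 between male and 0.26 between female libraries. Each sex held 1 library of one group, so sex and single libraries cannot be told apart here.

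Other goblet cell genes outside the 10 were then read from the same fit. Their list, set up for goblet cell secretion, is not limited to secreted products and also holds Muc4, Muc13, Nlrp6, Ern2, Creb3l1 and Creb3l4. Of 13 genes tested from this list, 5 were higher and 8 lower in β-cateninGOF/+ libraries. The median log2 difference was -0.37 beside -0.02 over all genes. 0 passed the adjusted threshold in limma, and 2 were lower at an unadjusted p under 0.05, beside 3.59% of all genes tested. The 2 were Muc4 and Rep15. Rep15, which encodes an effector of the GTPase Rab15, had 27.8, 38.2 and 22.4 units in mutant crypts against 77.3, 33.5 and 64.4 units in Control crypts, with overlapping groups. Clca1, a protease of intestinal mucus, had 460, 592 and 549 units in mutant crypts against 1146, 930 and 575 units in Control libraries. Mutant replicate 2 lay just above Control replicate 3, and the log2 difference was -0.68 ± 0.30 (adjusted p = 0.590 in limma). Muc4, a membrane-bound mucin, was lower in all 3 mutant libraries, at 11.5, 12.1 and 8.53 units against 18.9, 15.7 and 23.6 units in Control libraries. Its log2 difference was -0.80 ± 0.20 (unadjusted p = 0.00538 and adjusted p = 0.590 in limma), and it was the 1 gene of these 13 whose groups did not overlap. Among all genes tested, 16.7% had groups without overlap.

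Genes that build mucin sugar chains split evenly. Of 18 tested, 9 were higher and 9 lower, with a median log2 difference of 0.03, and 0 passed the adjusted threshold in limma. Below an unadjusted p of 0.05 there were 2, both lower in mutant libraries. Of all genes tested, 3.59% were lower at that threshold and 8.31% fell below it in either direction. St3gal6, a sialyltransferase, had 13.4, 15.7 and 12.7 units in β-cateninGOF/+ libraries and 27.4, 27.9 and 20.7 units in Control libraries. The other gene, the sialyltransferase St6galnac1, had 1.92 ± 0.819 units in mutant and 7.45 ± 5.76 units in Control libraries, with overlapping groups. For St3gal6, every mutant value lay below every Control value, with a log2 difference of -0.81 ± 0.16 (unadjusted p = 0.00179 and adjusted p = 0.540 in limma). The transferase genes Galnt2 and Galnt4 also had groups that did not overlap. Of the 18 genes, 1 was higher and 2 were lower without overlap, beside 16.7% of all genes tested without overlap in either direction. Galnt2 had 21.2, 19.3 and 19.5 units in mutant libraries and 15.0, 17.9 and 16.8 units in Control libraries. Galnt4 stood the other way, at 30.5, 28.8 and 20.3 units in mutant and 33.1, 38.8 and 30.7 units in Control libraries (adjusted p = 0.590 for both in limma).

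Regulators of the secretory lineage showed a like mixture. 7 of 12 were higher and 5 lower, with a median log2 difference of 0.10, and 0 passed the adjusted threshold in limma, although at an unadjusted p under 0.05 there was 1 in each direction. Of all genes tested, 4.72% were higher and 3.59% lower at that unadjusted threshold. Atoh1, the factor that commits progenitors to the secretory fate, had 13.3, 19.8 and 15.2 units in β-cateninGOF/+ libraries and 22.6, 14.4 and 12.4 units in Control libraries. These values overlapped fully, with a log2 difference of -0.01 ± 0.25 (adjusted p = 0.994 in limma). Gfi1, a repressor that acts after Atoh1, had 4.10 ± 0.795 units in mutant and 4.05 ± 1.53 units in Control libraries.

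Both genes at an unadjusted p under 0.05 had groups that did not overlap. Hes1, a Notch target that represses Atoh1, had 20.8, 27.3 and 18.2 units in mutant crypts against 31.9, 37.0 and 29.6 units in Control libraries. It was lower in all 3 mutant libraries, by a log2 difference of -0.56 ± 0.18 (adjusted p = 0.590 in limma). Klf4, a factor of mature goblet cells and other differentiated epithelial cells, had 57.3, 27.8 and 127 units in mutant libraries and 24.1, 19.0 and 22.4 units in Control libraries. It was higher in all 3, with its highest value in mutant replicate 3 and a ratio of 2.63 on the log2(value + 1) scale (adjusted p = 0.590 in limma). Dll4, a Notch ligand, had 7.15 ± 1.53 units in mutant and 5.12 ± 1.02 units in Control libraries, again without overlap (adjusted p = 0.590 in limma). Of the 12 regulators, 2 were higher and 1 was lower without overlap, beside 16.7% of all genes tested without overlap in either direction.

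The partners of guanylin overlapped between the groups. Guca2b, which encodes uroguanylin, had 684 ± 292 units in β-cateninGOF/+ and 560 ± 209 units in Control libraries. Gucy2c, the receptor of both peptides, had 113, 81.5 and 105 units in mutant crypts against 81.9, 80.8 and 113 units in Control libraries. Neither passed the test (adjusted p = 0.791 for Guca2b and 0.814 for Gucy2c in limma).

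**Figure D4:**
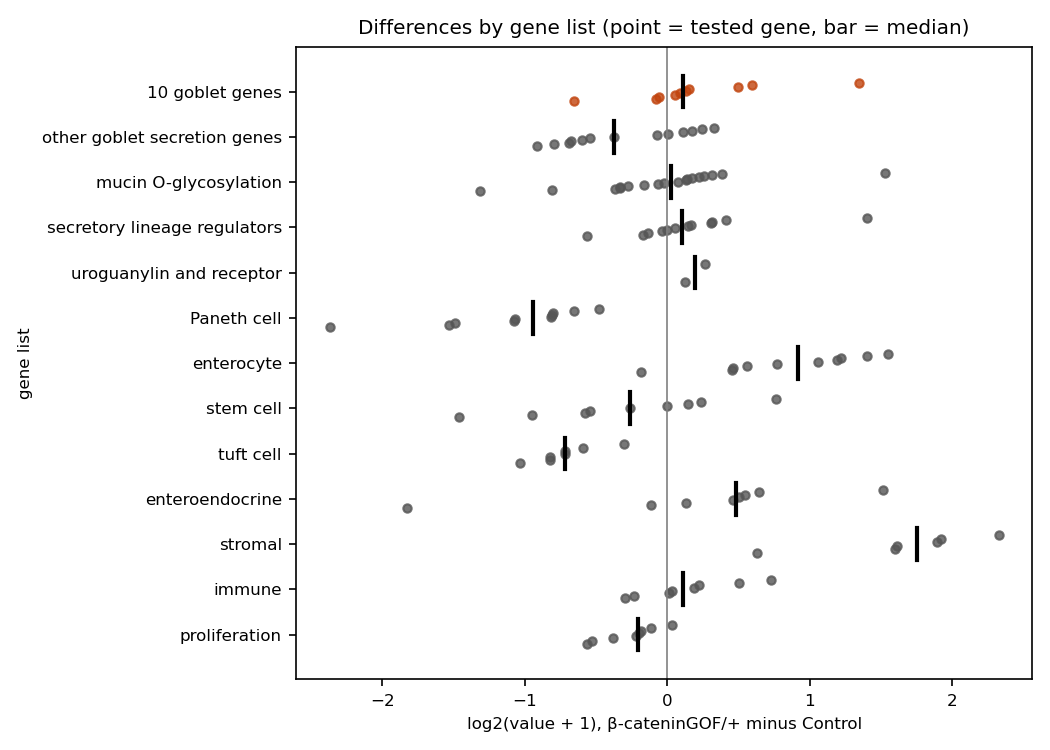
Difference in log2(value + 1) between β-cateninGOF/+ and Control libraries (horizontal axis) of each tested gene, by gene list (vertical axis); points are genes and bars list medians. The 10 goblet cell genes have a median of 0.11, as has the immune list, and the secretory lineage regulators have 0.10. List medians run from -0.94 for the Paneth cell list to 1.75 for the stromal list, with the enterocyte list at 0.92.

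Markers of other cells were read beside these values. The median log2 difference was -0.94 over 10 Paneth cell genes, 0.92 over 10 enterocyte genes, -0.72 over 7 tuft cell genes and 0.48 over 8 enteroendocrine genes, and 0 genes of these lists passed the adjusted threshold in limma. At an unadjusted p under 0.05 in limma, 1 Paneth gene (Ang4) was lower, 1 enterocyte gene (Fabp2) was higher and 2 tuft genes (Dclk1 and Alox5) were lower. Among enteroendocrine genes 4 (Chga, Chgb, Neurod1 and Sct) were higher and 1 (Reg4) lower. These 4 genes were also higher without overlap between the groups, and Alox5 was lower without overlap. Of all genes tested, 4.72% were higher and 3.59% lower at that p, and 8.34% were higher and 8.37% lower without overlap. Lyz1, the Paneth cell lysozyme gene, had 7889 ± 4680 units in mutant and 14251 ± 10409 units in Control libraries (n = 3 each). Chga, the chromogranin gene of enteroendocrine cells, had 63.3 ± 8.92 units in mutant and 44.7 ± 9.29 units in Control libraries, and Dclk1, a tuft cell kinase, had 3.85 ± 0.793 and 8.07 ± 4.01 units in mutant and Control libraries. Stem cell genes (9 tested), proliferation genes (8) and immune genes (8) had medians of -0.26, -0.21 and 0.11, with 0 genes past either threshold. Olfm4, a stem cell marker, had 439 ± 348 units in mutant and 822 ± 362 units in Control libraries, and Ptprc, a marker of leukocytes, had 6.26 ± 5.28 and 6.79 ± 2.46 units in mutant and Control libraries. Stromal markers were low: 10 of them summed to 24.9, 20.5 and 45.3 units in mutant libraries and to 7.90, 5.36 and 8.93 units in Control libraries, with Pdgfra at 0 in all 3 Control libraries. Of 6 stromal genes tested, all 6 were higher in mutant libraries without overlap between the groups, with a median log2 difference of 1.75. Of these, 5 had an unadjusted p under 0.05 and 0 passed the adjusted threshold in limma. Over all genes tested, 8.31% had an unadjusted p under 0.05 and in 16.7% the groups did not overlap. Col1a1, a collagen gene, had 1.46 ± 0.966 units in mutant and 0.0836 ± 0.0314 units in Control libraries. The part of these cells in the goblet gene values was not tested.

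Muc2 was also compared with all other genes by its profile over the 6 libraries. By the root mean square difference of centred log2 values, among 8885 genes with a mean of at least 5 units, the 6 nearest outside the 10 were Zfp950 (0.0733), Slc13a1 (0.190), Qpctl (0.202), Acox3 (0.216), Sec24d (0.218) and Scnm1 (0.220). Sec24d encodes a coat protein of vesicles leaving the endoplasmic reticulum, and Slc13a1 a sulfate transporter. Of the other goblet genes, Guca2a was nearest to Muc2 at 0.360, at rank 394 among 8884 genes compared, and Spink4 and Zg16 were farthest at 0.995 and 0.960. The measure is not scaled, so it grows with the spread of a gene as well as with a different pattern. Zg16 and Spink4 had the widest ranges of the 10 genes, at 7.33-fold and 3.76-fold from lowest to highest library. Zg16, like Muc2, was highest in β-cateninGOF/+ replicate 3, where Spink4 was lowest. Likeness over 6 libraries is a description of these libraries.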

How the data were processed

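Per the labels, mRNA of crypt epithelium was selected with poly-T beads and sequenced from randomly primed cDNA in 6 libraries. The deposited table, made by the authors, holds a signal per gene: a normalized abundance, whose making is not given in the sources used here. Build mm9 and the tools DESeq2 1.40.1 and kallisto 0.46.1 stand in the submitters' processing notes, with no role stated. Each column was tied to a sample through the group and number in its name; 0 value columns lacked a sample, and 24 rows carry calendar dates as symbols. Values are not counts (0% of values above 0 are whole within 1e-06). For genes with 1 annotated GENCODE M21 transcript, the value times the length less 200 bases fell within 0.1 of whole multiples of what 1 read is worth for 76.8 to 81.6% of genes at 1 to 5 reads, where an even spread gives 20%. The lengths of other genes are uncertain, so no count test was run.

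Values were transformed to log2(value + 1), which understates differences of low genes. The 11837 genes that averaged 1 unit or more, all 10 goblet genes included, were tested with limma 3.58.1 (R 4.3.3). The model had the group alone and a trend of variance with level, and p-values were adjusted by Benjamini-Hochberg over all genes, with a threshold of 0.05. The 10 genes and all lists were chosen with earlier results of these data known. Beside the 10, genes were named by a rule: up to 4 per list without overlap between groups and averaging 5 units or more, a few regulators, markers and partners set by name, and the 6 nearest to Muc2; of those that it gave, Smoc2, Cd44 and Vim are not described. Rep15, St6galnac1, Ang4, the other genes named at an unadjusted p under 0.05, the genes that share or nearly share an order of libraries, and the ratio of Spink4 to Zg16 were chosen after the values were seen. 3 of 19 symbols of goblet secretion genes were not matched. Same-numbered libraries share no label for animal or day. Figures were made with Python 3.11.15 and matplotlib 3.10.9.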

Additional observations from a re-analysis of the deposited data

Results flagged for a closer look

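Spdef had opposite signs in the sexes: the male mutant library lay below both male Control libraries (27.9 against 60.8 and 29.8 units), and both female mutant libraries lay above the female Control library (35.2 and 29.9 against 19.1 units). The difference of the log2 differences, male minus female, was -1.33, and its test did not pass (unadjusted p = 0.0932, adjusted p = 1.00 in limma). It rests on a male mutant library and a female Control library that are each the only one of their kind. Opposite signs in the sexes were seen for 9 of the 10 goblet genes and for 41.1% of all genes tested. The share of all genes that also lacked overlap within both sexes was not computed, so the arrangement of Spdef is not set apart from that of other genes.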

How the results depend on the processing

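Under 17 alternatives, 0 of the 10 goblet genes passed the adjusted threshold. Of 170 values of single genes, 155 kept their direction and 15 did not, and 8 had an unadjusted p under 0.05 in limma. All 8 were values of Zg16, Fcgbp or Spink4, and 3 of them came with array weights. The share of all genes below that p was 8.31% with the main settings and was not computed under the alternatives. Muc2, Fcgbp, Zg16 and Spink4 kept their direction in all 17, between 0.13 and 0.85, 0.40 and 0.97, 0.82 and 2.13, and -1.14 and -0.22 on the log2 scale. Dividing each library by its total moved the median of all genes to 0.30, that of the goblet genes to 0.46, Spdef to 0.27 and Galnt12 to 0.29; the goblet median less that of all genes was then 0.16, against 0.13 in the values reported. With array weights, whose estimate stopped before convergence, the goblet median was at -0.0976, Agr2 was at -0.13, Guca2a at -0.28 and Foxa3 at -0.0645, and with sex as a covariate Spdef was at 0.0694. Leaving out a library moved the goblet median between -0.0036 and 0.343, Agr2 between -0.0862 and 0.24, Tff3 between -0.024 and 0.13, Guca2a between -0.0919 and 0.35, Spdef between -0.46 and 0.36, Galnt12 between -0.18 and 0.16 and Foxa3 between -0.052 and 0.38.

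Calls over all genes, 2 with all libraries, were 26 after division by library totals, 6 with alpha-defensins left out of the total, 0 without a filter, 1 with a pseudocount of 5, 27 with array weights, 0 with sex as a covariate and between 0 and 4 when a library was left out. With the replicate number as a block they were 0. Deviations of same-numbered libraries correlated at -0.292, 0.333 and 0.325 over genes, and not every library was nearest to its own number, so the block was not read as pairing. The cause of these changes was not tested. For Foxa3, at 330 reads or more per library, counting error was at most 5.5% of a value, and the SD between libraries was 14.0% of the mean in mutant and 34.3% in Control libraries.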
